A study of Mus musculus with 29 samples.

Results

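A set of 8 genes of the blood vessel lining whose products bind leukocytes, platelets or neighbouring endothelial cells were followed across the hearts of mice with and without a C26 tumour. They were the rows of the deposited count table with the symbols Icam1, Icam2, Vcam1, Selp, Sele, Pecam1, Cdh5 and Vwf, 8 of 20411 genes, and all 8 had enough counts to be tested among 12928 genes. All groups were wildtype BALB/c mice that received intravenously an adeno-associated virus (AAV), a gene transfer vector, whose Tbg promoter drives its cargo in hepatocytes. The heart was sequenced, and the liver was not analysed here. The cargo was GFP, green fluorescent protein, or REV-ERBα, a transcriptional repressor of the circadian clock. Mice then received C26 colon carcinoma cells, a model of cancer cachexia, under the skin 10 days after the vector, or PBS. Thus PBS_GFP (n = 4) had the GFP vector and no tumour, PBS_REVERBa (n = 5) the REV-ERBα vector and no tumour, C26_GFP (n = 10) the GFP vector and a tumour, and C26_REVERBa (n = 10) the REV-ERBα vector and a tumour. No group went without a vector. Neither the age of the mice nor the time at which hearts were collected was used here.

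Leukocytes leave the blood in steps: selectins on the endothelium slow the cell, immunoglobulin-like adhesion molecules bound by leukocyte integrins stop it, and molecules of the junction between endothelial cells let it through. Inflammatory cytokines such as TNF and IL-1 are known to induce E-selectin, VCAM-1 and ICAM-1 in endothelium, whereas ICAM-2, PECAM-1 and VE-cadherin are made by resting endothelium. P-selectin and von Willebrand factor are stored together in Weibel-Palade bodies, the secretory granules of endothelial cells, and platelets hold both in granules of their own. ICAM-1 and VCAM-1 are also made outside endothelium, by leukocytes, fibroblasts and other cells. Proteins on the cell surface were not measured here.

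The 29 libraries held 3207497 to 16853646 counts, and 5 had above 10000000, of which 2 were PBS_GFP and 3 were C26_GFP. Values are CPM, counts scaled to the library total with edgeR's TMM factors, and differences are log2 fold changes ± SE from edgeR's quasi-likelihood test, with Benjamini-Hochberg adjusted p over all 12928 genes and a threshold of 0.05. As a check of the label, 15 other pan-endothelial markers (Kdr, Flt1, Tie1, Tek, Cldn5 and others) were all above 0 in every library, and their mean level ranged from 6.47 to 6.52 log2 CPM in PBS_GFP, 6.36 to 6.68 in PBS_REVERBa, 6.47 to 6.72 in C26_GFP and 6.38 to 6.62 in C26_REVERBa. In 8 libraries (1 of PBS_GFP, 1 of PBS_REVERBa, 3 of C26_GFP and 3 of C26_REVERBa) the mean of 5 atrial markers exceeded 5 log2 CPM. These 8, called atrium-rich here, stood apart by those markers, and results that this touches are given with and without them. In RNA of heart tissue, fewer cells of a type and less RNA per cell cannot be told apart.

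Promoter sequence is shown for the 3 members whose 250 bases before the transcription start were found in the RefSeq table (GRCm38.p6), so that the selectin genes and Icam1 can be set beside their values. No entry was found for Icam2, Vcam1, Pecam1, Cdh5 or Vwf. The sequences are from the plus strand at chr9:21015690-21015939 for Icam1, chr1:164047984-164048233 for Sele and chr1:164115014-164115263 for Selp, and capitals mark motif matches on either strand.
Icam1: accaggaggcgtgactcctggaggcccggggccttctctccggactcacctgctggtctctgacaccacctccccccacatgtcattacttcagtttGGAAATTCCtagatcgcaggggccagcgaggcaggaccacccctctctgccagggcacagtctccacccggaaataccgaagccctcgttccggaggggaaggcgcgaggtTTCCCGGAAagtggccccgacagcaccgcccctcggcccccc
Sele: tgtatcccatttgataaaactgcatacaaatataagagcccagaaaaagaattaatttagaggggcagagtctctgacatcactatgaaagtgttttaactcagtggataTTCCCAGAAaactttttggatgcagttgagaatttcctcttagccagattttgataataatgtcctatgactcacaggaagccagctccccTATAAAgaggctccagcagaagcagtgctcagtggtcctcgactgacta
Selp: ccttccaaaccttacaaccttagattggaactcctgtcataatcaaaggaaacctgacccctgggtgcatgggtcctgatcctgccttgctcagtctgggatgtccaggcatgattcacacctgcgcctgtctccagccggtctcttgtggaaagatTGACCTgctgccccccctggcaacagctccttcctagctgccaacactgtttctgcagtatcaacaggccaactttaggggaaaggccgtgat
A set of 6 motifs was searched on both strands. In Icam1 the capitals are GGAAATTCC, a kappa-B core of the type bound by NF-kB subunits, at bases -153 to -145 from the start. They are also TTCCCGGAA, a match to the STAT element TTCNNNGAA, at -42 to -34. For Icam1 the start is the RefSeq gene start at 21015940, not the start of the counted transcript at 21015960. For Sele it is the start of the counted transcript at 164048234, not the RefSeq gene start at 164039614. In Sele the capitals are TTCCCAGAA, also a STAT element match, at -140 to -132 and the TATA box TATAAA at -49 to -44. In Selp the capitals mark TGACCT at -93 to -88, the reverse complement of AGGTCA, the core of the element to which REV-ERB receptors bind. Of 32851 promoters of this length, 0.286% held GGAAATTCC, 7.02% TTCNNNGAA, 12.4% TATAAA and 14% AGGTCA. The kappa-B consensus GGGRNNYYCC, held by 7.25%, and the E-box CACGTG, held by 6.02%, had no exact match in these windows. Looser forms of these motifs were not searched for, so kappa-B-like sites that differ from those letters are not excluded. These matches describe letters in a window and are not measured binding sites.

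Levels were compared between genes only per kilobase of counted length. Over all 29 hearts Cdh5, the VE-cadherin of adherens junctions, had the highest mean level at 90.2 CPM per kilobase and Pecam1, the CD31 of endothelial contacts, followed at 72.4, with Cdh5 above Pecam1 in 27 of 29 hearts. Icam2 had 18.0 and lay below Pecam1 in 29 of 29 hearts. Vwf had 11.3, Icam1 10.7 and Vcam1 8.12. Vwf and Icam1 did not separate, since Vwf was the higher in 12 of 29 hearts although its mean was higher. Icam1 exceeded Vcam1 in 23 of 29 hearts. The selectin genes were far lower, at 0.618 CPM per kilobase for Selp and 0.589 for Sele. Their order differed between groups as a description: Selp exceeded Sele in 0 of 4 PBS_GFP and 0 of 5 PBS_REVERBa hearts, in 9 of 10 C26_GFP hearts and in 5 of 10 C26_REVERBa hearts. Selp rested on 0 to 40 counts a library and Sele on 2 to 39, so single-heart values of both are imprecise, whereas Cdh5 rested on 1171 to 5890 counts.

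The tumour comparison in GFP mice asks how the C26 tumour affects the heart with the control vector. Icam1, Selp and Vwf rose and Icam2 fell, so 4 of 8 members passed, against 28.2% of all genes tested (14.2% higher and 14% lower). Of these, Selp had enough counts to be tested only through the tumour hearts. Vcam1, Sele, Pecam1 and Cdh5 did not pass. The median log2 fold change was 0.19 over the 8 members and 0.00 over all genes tested. The plot of CPM by library shows every heart.

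**Figure D1:**
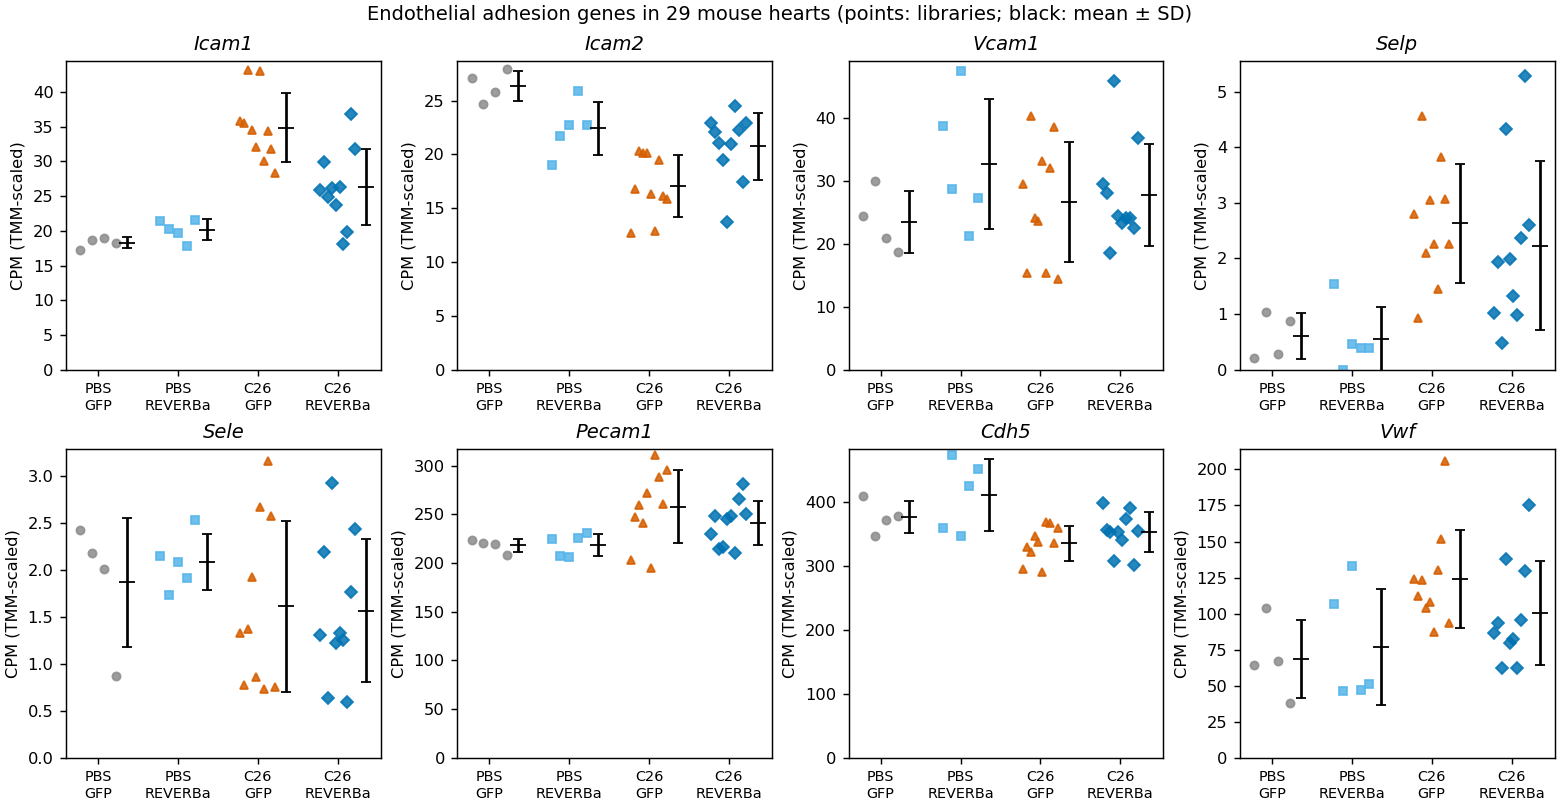
CPM of each of the 8 genes (vertical axis, TMM-scaled) in each of 29 hearts, by group (horizontal axis); points are libraries and the black marks are the mean ± SD of each group. The 10 C26_GFP hearts lie above all 4 PBS_GFP hearts for Icam1 and below all 4 for Icam2.

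Icam1, the ligand of the leukocyte integrins LFA-1 and Mac-1 (NM_010493, chromosome 9, 21015960 to 21028796, plus strand, mm10), had 17.3, 18.7, 18.9 and 18.3 CPM in the PBS_GFP hearts. In C26_GFP its lowest, median and highest values were 28.3, 34.5 and 43.2 CPM. Every C26_GFP heart was higher than every PBS_GFP heart, a pattern of no overlap that 12% of all genes showed in this comparison (5.65% with the tumour group higher). The group means were 18.3 ± 0.75 (SD, n = 4) and 34.9 ± 4.94 CPM (SD, n = 10), a rise of 0.94 ± 0.13 on the log2 scale, or 1.92-fold (edgeR adjusted p = 1.1e-05). With the mean level of the 15 pan-endothelial markers as a covariate the rise was 0.998 ± 0.136 (edgeR adjusted p = 9.57e-06), and without the 8 atrium-rich hearts it was 0.95 ± 0.14 (edgeR adjusted p = 8.15e-05).

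Icam2, a constitutive integrin ligand of resting endothelium (NM_010494, chromosome 11, 106377656 to 106382641, minus strand), had 27.1, 24.7, 25.8 and 27.9 CPM in PBS_GFP. Its lowest, median and highest values in C26_GFP were 12.7, 16.6 and 20.3 CPM. All 10 tumour hearts were lower than all 4 tumour-free hearts (6.31% of all genes did not overlap in this direction). The means were 26.4 ± 1.41 (SD, n = 4) and 17.1 ± 2.87 CPM (SD, n = 10), and Icam2 fell by 0.61 ± 0.12 on the log2 scale to 0.654 of its tumour-free level (edgeR adjusted p = 0.000328). The fall was -0.67 ± 0.12 with the pan-endothelial level as a covariate (edgeR adjusted p = 0.00025).

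Icam1 and Icam2 thus changed in opposite directions, and their levels per kilobase lay closer together in C26_GFP than in PBS_GFP. In the PBS_GFP hearts Icam1 had 7.21 ± 0.30 and Icam2 23.1 ± 1.23 CPM per kilobase (SD, n = 4). In the C26_GFP hearts Icam1 had 13.7 ± 1.95 and Icam2 14.95 ± 2.52 CPM per kilobase (SD, n = 10). The log2 ratio of Icam1 to Icam2 per kilobase averaged -1.68 ± 0.12 in the former group, against -0.12 ± 0.27 in the latter. Icam1 was the higher of the pair in 0 of 4 PBS_GFP hearts and 3 of 10 C26_GFP hearts. This ratio was formed after the values were seen. It is therefore given as a description, and tests run on it are not used as support. The plot of Icam1 against Icam2 shows each heart.

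**Figure D2:**
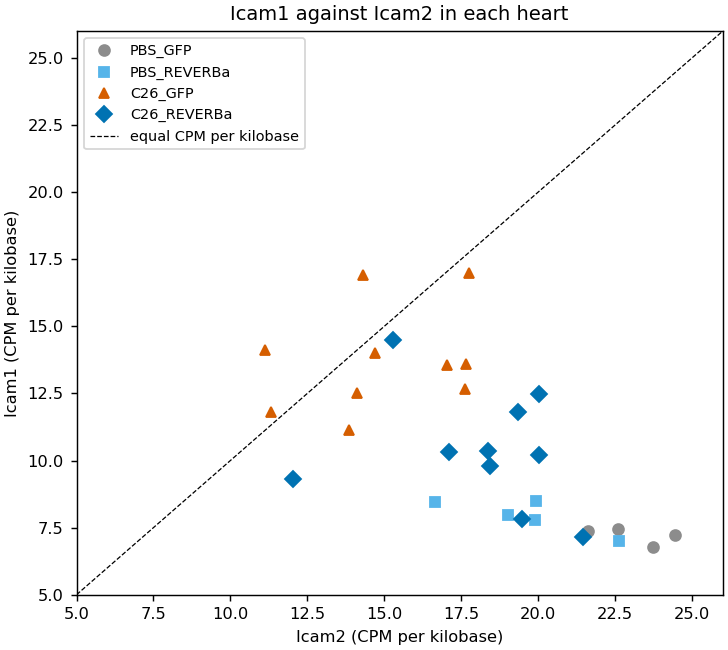
CPM per kilobase of Icam1 (vertical axis) against Icam2 (horizontal axis) in 29 hearts, coloured by group, with a dashed line where both are equal. Of the C26_GFP hearts 3 of 10 lie above the line, and 0 of 4 PBS_GFP, 0 of 5 PBS_REVERBa and 0 of 10 C26_REVERBa hearts lie above it.

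Selp, P-selectin, which tethers rolling leukocytes (NM_011347, chromosome 1, 164115264 to 164150026, plus strand), had 0.208, 1.04, 0.287 and 0.872 CPM in PBS_GFP. Its lowest, median and highest values in C26_GFP were 0.924, 2.53 and 4.56 CPM. Of 10 C26_GFP hearts, 9 were above the highest PBS_GFP heart and 1 lay within the range. Selp rose 4.42-fold, or 2.14 ± 0.56 on the log2 scale (edgeR adjusted p = 0.0049). Selp had enough counts to be tested through the tumour hearts, since it was too low in a fit of only the tumour-free groups. A gene kept in that way is more easily called higher than lower, so this call is given as a description. The log2 difference was 2.85 without PBS_GFP replicate 2. The call was lost without PBS_GFP replicate 1 (1.67, edgeR adjusted p = 0.0501) and without the 5 libraries above 10000000 counts (2.20, edgeR adjusted p = 0.121).

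Vwf, von Willebrand factor, the large multimer that captures platelets (NM_011708, chromosome 6, 125552948 to 125686679, plus strand), had 64.0, 104, 67.1 and 38.1 CPM in PBS_GFP. Its lowest, median and highest values in C26_GFP were 87.6, 118 and 206 CPM. Of 10 tumour hearts, 8 exceeded the highest PBS_GFP heart, which was the atrium-rich replicate 2. Vwf rose 1.78-fold, or 0.83 ± 0.29 on the log2 scale (edgeR adjusted p = 0.0308). The call was lost without PBS_GFP replicate 1, 3 or 4 or C26_GFP replicate 9 (edgeR adjusted p = 0.0857, 0.0701, 0.129 and 0.0516), and with the replicate block (0.81, edgeR adjusted p = 0.07). Without the 8 atrium-rich hearts it was 1.01 ± 0.23 (edgeR adjusted p = 0.00332).

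The remaining 4 members did not pass. Pecam1 (NM_008816, chromosome 11, 106654213 to 106715281, minus strand) ranged from 208 to 224 CPM in PBS_GFP and from 195 to 311 CPM in C26_GFP, with a log2 difference of 0.24 ± 0.09 and edgeR adjusted p = 0.0511. Of 10 tumour hearts, 8 were above the PBS_GFP range and 2 below it. Pecam1 passed without C26_GFP replicate 1, 4 or 6 (edgeR adjusted p = 0.0188, 0.0491 and 0.0109), without a filter on low counts (edgeR adjusted p = 0.0498), with the atrial marker level as a covariate (edgeR adjusted p = 0.0493) and in DESeq2 (adjusted p = 0.0413). Cdh5 (NM_009868, chromosome 8, 104101625 to 104144502, plus strand) ranged from 346 to 408 CPM in PBS_GFP and from 291 to 369 CPM in C26_GFP, with a log2 difference of -0.17 ± 0.08 and edgeR adjusted p = 0.115. Of 10 tumour hearts, 7 were below the PBS_GFP range. With the pan-endothelial level as a covariate Cdh5 fell by 0.26 ± 0.07 (edgeR adjusted p = 0.00497). Vcam1, the ligand of the integrin VLA-4 (NM_011693, chromosome 3, 116110020 to 116129688, minus strand), ranged from 18.6 to 29.9 CPM in PBS_GFP and from 14.5 to 40.2 CPM in C26_GFP. Its log2 difference was 0.15 with a 95% interval of -0.36 to 0.66. Sele, E-selectin (NM_011345, chromosome 1, 164048234 to 164057677, plus strand), ranged from 0.872 to 2.43 CPM in PBS_GFP and from 0.728 to 3.16 CPM in C26_GFP, with a log2 difference of -0.29 and an interval of -1.03 to 0.44. For both genes the tumour hearts spread on either side of the tumour-free range. The selectin genes are neighbours on chromosome 1, with 57586 bases between the end of Sele and the start of Selp.

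The vector comparison in tumour-bearing mice asks whether REV-ERBα delivered to the liver changes the heart of a mouse with a tumour. Icam1 fell, and it was 1 of 8 members to pass, against 7.2% of all genes tested (3.45% lower). In C26_REVERBa Icam1 had a lowest, median and highest value of 18.1, 26.1 and 36.8 CPM, beside 28.3, 34.5 and 43.2 in C26_GFP. The groups overlapped, with 7 of 10 C26_REVERBa hearts below the lowest C26_GFP heart. Icam1 fell by 0.40 ± 0.09 on the log2 scale, to 0.757 of the level with the GFP vector (edgeR adjusted p = 0.0143). Without the 8 atrium-rich hearts the difference was -0.52 ± 0.10 (edgeR adjusted p = 0.00529).

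Icam2 had a lowest, median and highest value of 13.7, 21.6 and 24.5 CPM in C26_REVERBa, and 7 of 10 hearts were above the highest C26_GFP heart. Its difference of 0.27 ± 0.09 did not pass (edgeR adjusted p = 0.0699), although it did without the 5 deepest libraries (0.34, edgeR adjusted p = 0.0407) and without C26_REVERBa replicate 5 (0.32, edgeR adjusted p = 0.0248) or 9 (0.29, edgeR adjusted p = 0.0365). The log2 ratio of Icam1 to Icam2 per kilobase was -0.82 ± 0.43 (SD, n = 10), and Icam1 was the higher in 0 of 10 hearts. The other 6 members had log2 differences between -0.30 for Vwf and 0.07 for Cdh5, with edgeR adjusted p from 0.394 for Vwf to 0.987 for Sele. The 95% intervals were -0.24 to 0.04 for Pecam1 and -0.05 to 0.20 for Cdh5, but -0.91 to 0.44 for Selp and -0.60 to 0.57 for Sele, so the low counts of the selectin genes left their differences far less precise than those of the junction genes. Vwf values were 62.2, 90.0 and 175 CPM (lowest, median, highest), and 5 of 10 hearts were below the lowest C26_GFP heart. The median over the members was -0.05, and it was 0.00 over all genes.

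**Figure D3:**
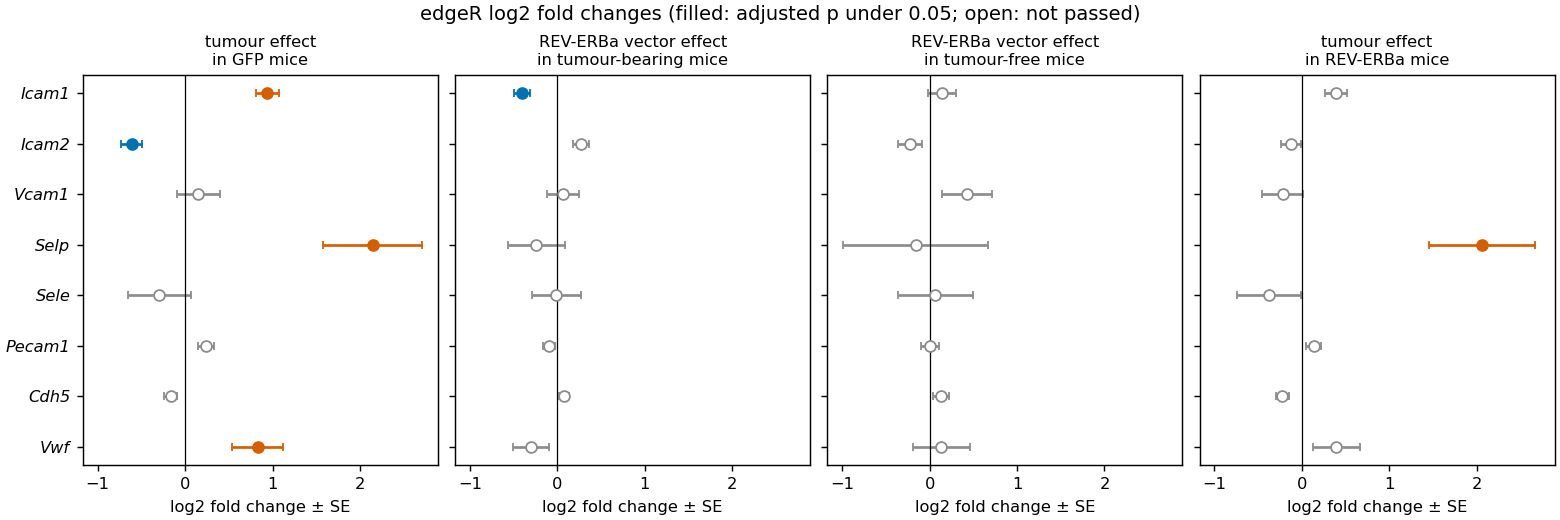
log2 fold change ± SE (horizontal axis) of the 8 genes in 4 comparisons, from the edgeR fit to 29 hearts; filled points passed an adjusted p of 0.05, red for higher and blue for lower, and open points did not. Icam1 is at 0.94 for the tumour with the GFP vector and -0.40 for the REV-ERBα vector in tumour-bearing mice, and the intervals of Selp are the widest.

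In mice without a tumour, the same vector comparison gave no call for the members or for any gene (0 of 8, and 0% of all genes). None of the 8 had an unadjusted p under 0.05 in edgeR, and DESeq2 called none. Icam1 had 21.5, 20.3, 19.7, 17.8 and 21.6 CPM in the PBS_REVERBa hearts, and Icam2 had 19.0, 21.7, 22.7, 25.9 and 22.7 CPM. For Icam1 4 of 5 hearts were above the PBS_GFP range, with a log2 difference of 0.14 and a 95% interval of -0.18 to 0.46. For Icam2 4 of 5 were below it, with -0.22 and an interval of -0.51 to 0.07. Vcam1 had 38.7, 28.7, 47.3, 21.3 and 27.2 CPM, and its log2 difference of 0.43 had an interval of -0.16 to 1.02. Selp had 1.53, 0, 0.464, 0.383 and 0.389 CPM, where the 0 in replicate 2 allows up to 3 counts, or 0.869 CPM, by counting error alone.

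The tumour comparison with the REV-ERBα vector gave 1 call among the 8, a rise of Selp, against 7.23% of all genes tested (4.05% higher). Its 5 tumour-free values are those just given, and in C26_REVERBa its lowest, median and highest values were 0.479, 1.96 and 5.28 CPM. Of 10 tumour hearts, 6 were above the highest PBS_REVERBa heart. The rise was 4.18-fold, or 2.06 ± 0.61 on the log2 scale (edgeR adjusted p = 0.0359). Here too Selp had enough counts to be tested through the tumour hearts, so the call is given as a description. The call was lost without PBS_REVERBa replicate 2, 3, 4 or 5 or C26_REVERBa replicate 9 (edgeR adjusted p = 0.0932, 0.0716, 0.0857, 0.0993 and 0.056), and without the 8 atrium-rich hearts (1.36 ± 0.60, edgeR adjusted p = 0.187). The log2 difference was 2.70 without PBS_REVERBa replicate 1. The 3 highest C26_REVERBa values of Selp were in its 3 atrium-rich hearts.

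Icam1 missed the threshold in the same comparison. Of 10 tumour hearts, 8 were above its PBS_REVERBa range, with a log2 difference of 0.39 ± 0.13 and edgeR adjusted p = 0.0558. It passed without C26_REVERBa replicate 7 (0.45, edgeR adjusted p = 0.0145) or 8 (0.43, edgeR adjusted p = 0.0398). Icam1 also passed under 2 of the 12 alternatives in processing described below. Cdh5 had 359, 473, 346, 425 and 450 CPM in PBS_REVERBa and a range of 301 to 399 CPM in C26_REVERBa, with a log2 difference of -0.22 ± 0.07 and edgeR adjusted p = 0.063. It passed without PBS_REVERBa replicate 1 (-0.26, edgeR adjusted p = 0.045) or 3 (-0.28, edgeR adjusted p = 0.0238) or C26_REVERBa replicate 1 (-0.24, edgeR adjusted p = 0.0399). Cdh5 also passed under 3 of the 12 alternatives. Icam2 differed by -0.12, with a 95% interval of -0.36 to 0.12. Vwf differed by 0.40 ± 0.27 with edgeR adjusted p = 0.383.

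Whether the tumour effect itself differed between the vectors was tested as an interaction, and no member or other gene passed (0 of 8, and 0% of all genes). Icam1 had an interaction of -0.54 ± 0.18 (unadjusted p = 0.00561, edgeR adjusted p = 0.332) and Icam2 of 0.49 ± 0.17 (unadjusted p = 0.00659, edgeR adjusted p = 0.341), and these 2 were the members with an unadjusted p under 0.05. DESeq2 called 15 genes and none of the 8, giving 6 of the 8 no adjusted p. Calls of Icam1, Icam2 and Vwf with the GFP vector and not with REV-ERBα are therefore not shown to differ between the vectors. The first and the vector comparison in tumour-bearing mice share the C26_GFP hearts, so a fall of Icam1 in one is not independent of its rise in the other.

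Within groups, some members varied together from heart to heart. Deviations of log2 CPM from the group mean were compared for all 28 pairs over 29 hearts by two-sided permutation with Benjamini-Hochberg adjustment, and 7 pairs passed. Vcam1 and Sele had Pearson's r = 0.71 (permutation p = 0.0001, adjusted p = 0.00224) and Spearman's rho = 0.70 (permutation p = 8e-05, adjusted p = 0.00224). Without the 2 hearts farthest from the median of Vcam1 r was 0.72, and it was 0.78 within C26_GFP and 0.79 within C26_REVERBa. Vcam1 also varied with Vwf (r = 0.63, rho = 0.58, permutation adjusted p = 0.00224 and 0.0213) and with Selp (r = 0.53, rho = 0.47, permutation adjusted p = 0.0233 and 0.058). Vwf varied with Selp (r = 0.56, rho = 0.57, permutation adjusted p = 0.0233 and 0.0323) and with Sele (r = 0.48, rho = 0.51, permutation adjusted p = 0.0233 and 0.0323). Cdh5 varied inversely with Icam1 (r = -0.50, rho = -0.48, permutation adjusted p = 0.0233 and 0.058) and with Selp (r = -0.54, rho = -0.43, permutation adjusted p = 0.0233 and 0.0983). Without the 2 hearts farthest from the median of the first gene, r was 0.64 for Vcam1 with Vwf, 0.43 for Vcam1 with Selp and for Sele with Vwf, 0.48 for Selp with Vwf, -0.42 for Icam1 with Cdh5 and -0.52 for Selp with Cdh5. Within C26_GFP and C26_REVERBa, r was -0.10 and -0.63 for Selp with Cdh5, and 0.31 and 0.81 for Selp with Vwf. It was 0.42 and 0.71 for Vcam1 with Vwf, and 0.37 and 0.70 for Sele with Vwf. For Vcam1 with Selp it was 0.78 and 0.52, and for Icam1 with Cdh5 -0.72 and -0.59.

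Without the 8 atrium-rich hearts, 1 of the 7 pairs passed over the other 21 hearts, Vcam1 with Sele (r = 0.77, permutation adjusted p = 0.0148). The other 6 kept the sign of r with fewer hearts. Their r was -0.49 for Icam1 with Cdh5, 0.46 for Vcam1 with Selp, 0.47 for Selp with Vwf, 0.42 for Vcam1 with Vwf, -0.37 for Selp with Cdh5 and 0.28 for Sele with Vwf (permutation adjusted p from 0.159 to 0.408). In C26_REVERBa the median of Vwf was 138 CPM in the 3 atrium-rich hearts and 82.1 CPM in the other 7. In C26_GFP it was 123 and 112 CPM. Selp had medians of 4.32 and 1.32 CPM in C26_REVERBa, and 3.06 and 2.26 CPM in C26_GFP. The plot by atrial marker level shows these hearts, and the part of atrial tissue in the relations beyond these values was not tested. Icam1 and Icam2, which changed in opposite directions between groups, had r = -0.07 (rho = -0.13, permutation adjusted p = 0.783 and 0.64) within groups. Pecam1 and Cdh5 had r = 0.37 (rho = 0.34, permutation adjusted p = 0.0955 and 0.168), from 0.93 within C26_GFP to -0.17 within C26_REVERBa.

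**Figure D4:**
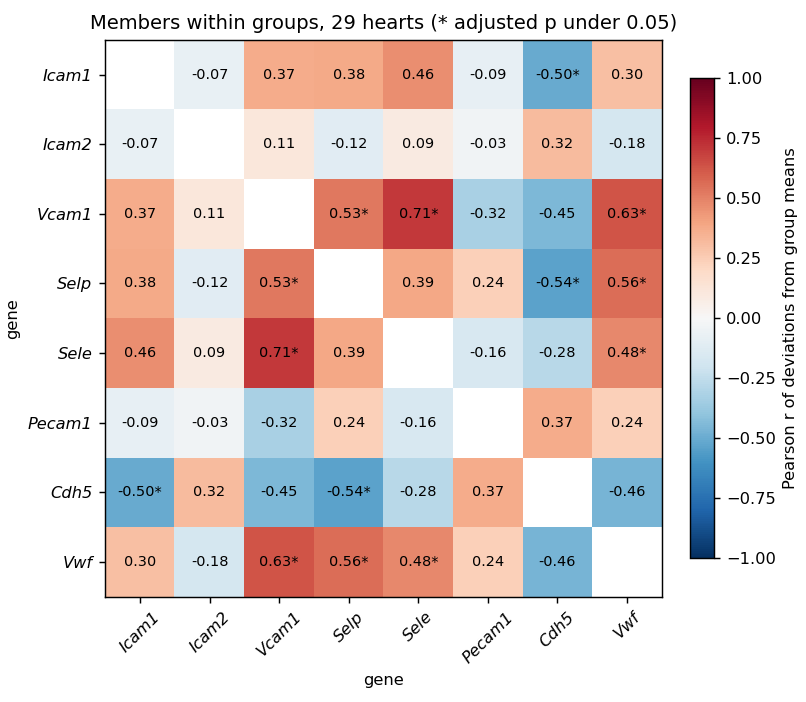
Pearson's r of the within-group deviations of log2 CPM for each pair of the 8 genes over 29 hearts (both axes list the genes, colour and number give r, an asterisk marks a permutation adjusted p under 0.05). Vcam1 with Sele, at 0.71, is the highest of the 28 pairs, and the 2 negative pairs marked both include Cdh5.

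**Figure D5:**
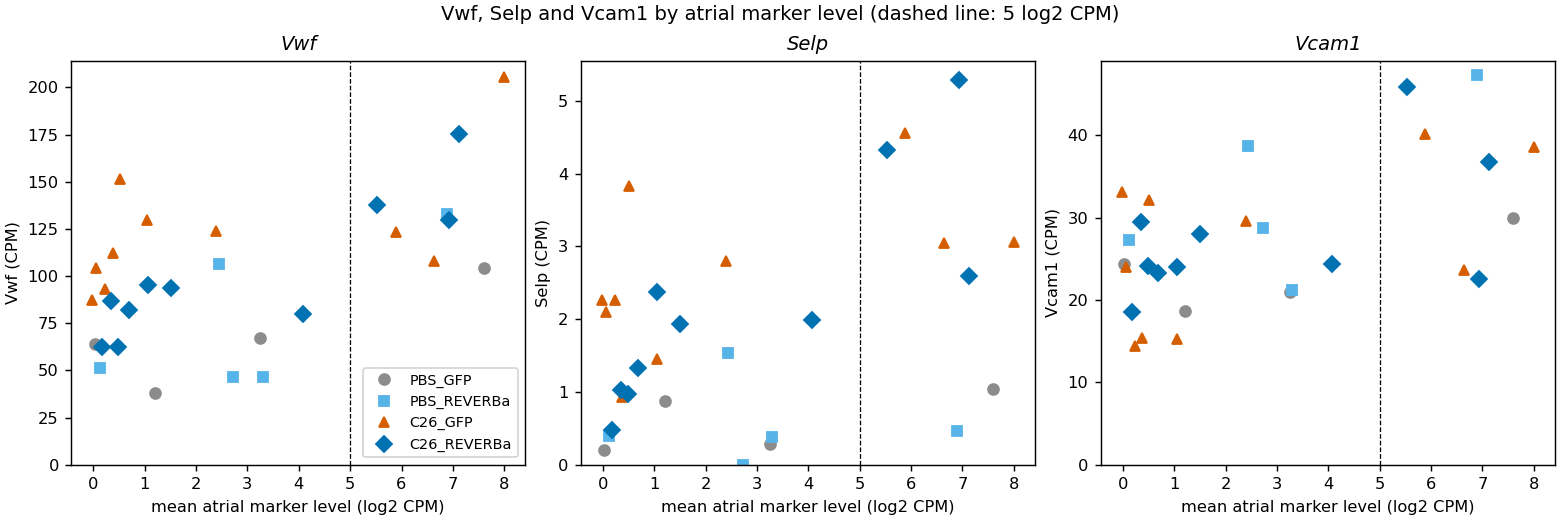
CPM of Vwf, Selp and Vcam1 (vertical axes) against the mean level of 5 atrial markers in log2 CPM (horizontal axis) in 29 hearts, coloured by group, with a dashed line at 5. The 8 hearts to the right of the line include the heart with the most Vwf in each group: PBS_GFP at 104, PBS_REVERBa at 133, C26_GFP at 206 and C26_REVERBa at 175 CPM.

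The genes most like each member were found by Pearson's r of within-group deviations over 29 hearts, among 10505 or 10506 genes with a mean of at least 5 CPM, and are given as a description in which library and tissue composition are shared. For Vwf these were Npr3, an endocardial natriuretic peptide clearance receptor (r = 0.86), and Ltbp3 (r = 0.86). For Vcam1 they were Lum, the fibroblast proteoglycan lumican (r = 0.86), and Pcdhgc3 (r = 0.85). For Cdh5 they were Cav2, a caveolin (r = 0.79), and Nras (r = 0.78), and for Pecam1 Ppfibp1 (r = 0.79) and Igf1r (r = 0.77). For Selp they were Cfd, the serine protease adipsin (r = 0.75), and Mmp23 (r = 0.75). For Icam1 they were Nadk (r = 0.74) and Mrgprf (r = 0.68), for Icam2 Agrn (r = 0.71) and Ifi203 (r = 0.68), and for Sele Vcam1 (r = 0.71) and Marcksl1 (r = 0.70).

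Lists of genes that act with the members were counted in the tumour comparison in GFP mice, in which 28.2% of all genes passed. Of 18 tested genes of the endothelial response to TNF and IL-1, 9 rose and 9 did not pass, and those that rose included the receptor genes Tnfrsf1a (0.85 ± 0.09), Il1r1 (1.04 ± 0.13) and Tnfrsf1b (0.73 ± 0.13). The median log2 fold change of this list was 0.29, and it was 0.00 over all genes. In the REV-ERBα vector comparison with a tumour, in which 7.2% of all genes passed, 1 of the 18 fell, Nfkbia, the NF-kB inhibitor (-0.54 ± 0.15, edgeR adjusted p = 0.0272). Of 16 tested genes of Weibel-Palade bodies and secretion, 5 rose and 2 fell with the tumour. Cd63, a tetraspanin of the membrane of these granules, rose by 0.85 ± 0.11, Rab3d by 0.39 ± 0.09 and Rab27a by 0.85 ± 0.20, and Cd63 was the 1 member of this list to change with the vector in tumour-bearing mice (-0.46 ± 0.08, edgeR adjusted p = 0.0044). Angpt2 and Esm1, endothelial secreted proteins, fell.

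Of 12 tested leukocyte counter-receptors, Itgam, the alpha chain of Mac-1, rose (0.70 ± 0.22, edgeR adjusted p = 0.0143), Itgav fell (-0.22 ± 0.07, edgeR adjusted p = 0.0247) and 10 did not pass. Of 20 tested other adhesion and junction genes, Podxl and Esam rose, Cd34 (-0.26 ± 0.07), Mcam (-0.40 ± 0.11) and Jam3 (-0.39 ± 0.12) fell, and 15 did not pass. Of 13 endothelial transcription factors, 6 rose and 2 fell, among them Sox17 (0.86 ± 0.17), Gata2 (0.69 ± 0.17) and Sox7 (-0.78 ± 0.17). Sox17 was lower with the REV-ERBα vector in tumour-bearing mice (-0.42 ± 0.12, edgeR adjusted p = 0.0374). In that vector comparison 7.2% of all genes passed. Of the 12 counter-receptors Cd44 alone passed there, as lower (-0.40 ± 0.13, edgeR adjusted p = 0.0495). Of the 20 adhesion and junction genes 2 were higher and 0 lower.

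Markers of other cells were counted in the same way. With the tumour in GFP mice, where 14.2% of all genes rose and 14% fell, 4 of 7 cardiomyocyte markers fell and 1 rose. In the same comparison 2 of 5 fibroblast markers rose and 0 fell, and 2 of 7 pericyte and smooth muscle markers fell and 0 rose. The part of these cells in the values of the members was not tested. The mean level of 9 macrophage and monocyte markers ranged from 2.93 to 3.26 log2 CPM in PBS_GFP, 2.84 to 3.22 in PBS_REVERBa, 3.26 to 4.04 in C26_GFP and 3.18 to 3.67 in C26_REVERBa. Of these 9, 3 rose with the tumour in GFP mice (C1qa, C1qb and Ly6c2), where 14.2% of all genes rose, and 3 fell with the vector in tumour-bearing mice (C1qa, C1qb and Cd14), where 3.45% of all genes fell, in the directions of Icam1, whose dependence on them was not tested. The summed level of 9 platelet and megakaryocyte markers had medians of 25.3 CPM in PBS_GFP, 19.0 in PBS_REVERBa, 24.9 in C26_GFP and 26.9 in C26_REVERBa. Its highest value was 77.5 CPM, in C26_GFP. Of these sums Gp1ba alone had medians of 12.6, 11.9, 14.5 and 12.8 CPM, in the same order. Of 8 tested platelet genes 0 passed with the tumour under either vector. Their median log2 fold change was -0.16 in GFP mice and 0.89 in REV-ERBα mice. The part of platelets in Selp and Vwf was not tested. The summed level of 8 neutrophil markers stayed between 0.208 and 5.6 CPM. Its medians were 1.09 CPM in PBS_GFP, 0.928 in PBS_REVERBa, 2.62 in C26_GFP and 2.16 in C26_REVERBa. Only 1 neutrophil marker was tested, and it did not pass with the tumour in GFP mice (1.37). It rose in REV-ERBα mice (2.59), where 4.05% of all genes rose. No neutrophil marker exceeded 1.16 CPM in a tumour-free heart, so this rise is given as a description. Of the 8 markers, Ly6g was at 0 in all 9 tumour-free hearts, but also in 8 of 10 C26_GFP and 6 of 10 C26_REVERBa hearts. Its highest value was 0.387 CPM, in C26_REVERBa, so its zeros do not set the tumour-free hearts apart. Of 15 pan-endothelial markers 5 rose (Flt1, Cyyr1, Tie1, Tek and Esam) and 1 fell (Kdr, -0.56 ± 0.12) with the tumour in GFP mice, where 28.2% of all genes passed. Of 7 venous and endocardial markers 4 rose, among them Ackr1 (3.18 ± 0.66), and 1 fell, Aplnr (-2.24 ± 0.34). Ackr1 and Ly6c2 were at most 0.287 and 0.581 CPM in PBS_GFP, and 0.696 and 0.614 CPM in PBS_REVERBa. Both had enough counts to be tested only through the tumour hearts, so their rises are given as descriptions.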

How the data were processed

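The labels' protocols give total RNA of whole heart, sequenced from a stranded kit without selection of polyadenylated RNA. Atrial markers nevertheless differed widely between libraries of a group. In C26_GFP Sln had a median of 0.53 and a highest value of 181 CPM, and Bmp10 a median of 0 and a highest value of 418 CPM. Whether each library held the same parts of the heart was not tested. The authors deposited raw read counts per RefSeq gene with a counted length in bases, and every value used is a whole number. STAR 2.4.2a, DESeq2 1.24.0 and the mm10 build appear, without roles, in the submitters' processing notes. No source used here names the counting tool or its strand setting, so genes that overlap others are uncertain. Starts were raised by 1, since the deposited end minus start equals the deposited length in all 20411 rows. Of the per-sample columns, 1 matched no sample and was not used.

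Groups came from the labels' titles, and separate animal numbers make each library 1 mouse. In edgeR 4.0.16 (R 4.3.3), filterByExpr (minimum count 10, minimum total 15) kept 12928 genes, TMM factors scaled the libraries, and 1 quasi-likelihood model with 4 group means was fitted to all 29 libraries without covariates. Log2 CPM used a prior count of 2. The SE is the log2 fold change divided by the square root of F. Pairs of members were tested with 100000 permutations within groups in Python 3.11.15 (scipy 1.17.1). Marker levels are means of log2 CPM. Intervals and the limit of 3 counts cover only what the model or counting gives.

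The members, the gene lists and the tests were chosen with earlier results of these data known. The named genes were the 8 members, the 2 genes most like each, and for each list up to 3 genes by smallest p with the tumour in GFP mice; the other list and marker genes were named after their values were seen, as were the motifs. Alternatives were RLE and upper quartile scaling, DESeq2 1.42.0, other filters, a replicate block, fitting only the compared groups, thinning, marker covariates and leaving out libraries, of which the atrial covariate was added after the data were seen. On simulated data, 200 changed genes were drawn from all genes tested. In the tumour comparison in GFP mice (12811 genes) the procedure recovered 70% of genes changed 1.5-fold and 85% of those changed 2-fold, with 11 false calls. These shares were 82% and 90% for the vector with a tumour, and 66% and 89% for the tumour in REV-ERBα mice. For the vector without a tumour they were 44% and 81%. They do not describe low-count genes such as Selp and Sele. The 200 changed genes were also far fewer than the 3642 called with the tumour in GFP mice. Recovery and false calls depend on how many genes change, so these shares need not hold in the real data. All pairs of libraries within a group differed beyond sampling noise (chi-square per degree of freedom at least 2.84). Some single genes are not reported here.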

Additional observations from a re-analysis of the deposited data

How the results depend on the processing

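Under 12 alternatives and leaving out each library in turn, Icam1 kept its calls with the tumour in GFP mice and with the vector in tumour-bearing mice, and Icam2 kept its call with the tumour in GFP mice. The count of members called in GFP mice was 3 to 5 under the alternatives and 2 to 5 when 1 library was left out, the lowest without PBS_GFP replicate 1. With the vector in tumour-bearing mice it was 2 without the libraries above 10000000 counts, and 1 to 2 with 1 library left out. With the tumour in REV-ERBα mice the main count of 1 became 0 with the replicate block, with only the compared groups, after thinning and without the atrium-rich hearts, 2 with the pan-endothelial covariate, and 3 with DESeq2 and with the atrial covariate, and it was 0 to 2 with 1 library left out. It was 0 throughout for the vector without a tumour and for the interaction. The 7 pairs became 4 with Spearman's rho and 1 without the atrium-rich hearts. The cause was not tested.

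Replicate numbers did not pair the hearts (r of same-numbered deviations from -0.35 to 0.22, and at most 1 number in a comparison correlated best with itself). With the replicate block 3 members passed in GFP mice, 1 with the vector in tumour-bearing mice and 0 with the tumour in REV-ERBα mice (Selp 1.98, edgeR adjusted p = 0.094), and all genes called went from 931 to 291 for the vector in tumour-bearing mice and from 935 to 450 for the tumour in REV-ERBα mice. All genes called were also 327 (vector with a tumour, only the compared groups), 554 (same comparison, pan-endothelial covariate) and 1972 in place of 3642 (tumour in GFP mice, without the deepest libraries).

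Differences that changed sign were not called in either fit. For Sele with the vector in tumour-bearing mice they were 0.0027 with upper quartile factors, 0.077 with the replicate block and 0.096 without the deepest libraries, and for Sele with the tumour in GFP mice 0.064 without those libraries. For Pecam1 with the vector without a tumour they were -0.000153 without a filter, -0.023 with the block, -0.000394 after thinning and -0.062 with the pan-endothelial covariate. With that covariate Vcam1 was -0.059 with the vector in tumour-bearing mice, and the interactions of Pecam1 and Cdh5 were 0.0019 and 0.076. The interaction of Selp was 0.014 with the block, and Selp with the vector without a tumour was 0.60 without the atrium-rich hearts.

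With 1 library left out, sign changes occurred for the vector without a tumour in Pecam1 (-0.017 to 0.025), Sele (-0.10 to 0.23), Selp (-0.79 to 0.55) and Vwf (-0.17 to 0.42), for the vector with a tumour in Sele (-0.16 to 0.12) and Vcam1 (-0.054 to 0.14), and for the interaction in Cdh5 (-0.11 to 7.93e-05), Sele (-0.24 to 0.083) and Selp (-0.79 to 0.56). Sele was too low to be fitted after thinning and in 2 of the fits of only the compared groups, and Selp in 1. Depth limits Selp and Sele most, with at most 40 and 39 counts in a library.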
